A study of Mus musculus with 10 samples.

Results

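The myeloid transcription factors described here are 9 mouse genes, *Spi1*, *Irf8*, *Irf5*, *Runx1*, *Cebpa*, *Cebpb*, *Mef2c*, *Mitf* and *Tfec*, taken by their symbols from the 25232 genes of the deposited table. All 9 had an entry. The table summarised 10 RNA-seq libraries of the spinal cord of C57BL/6 female mice of 90 days, 5 from wild type (WT) littermates and 5 from SOD1 G93A mice, which carry many copies of a human *SOD1* transgene with a mutation of familial amyotrophic lateral sclerosis (ALS). The methods name the C57BL/6J substrain as the background and place the dissection in the lumbar region, while the labels give C57BL/6 and the spinal cord only. The value used for each gene is the authors' base mean, which is the mean over all 10 libraries of the read counts divided by size factors. WT and SOD1 G93A mice enter this mean together, so the levels below describe the mixed tissue of both genotypes and no genotype was compared with the other. The authors' own comparison of the genotypes was not used here, and the depth of each library and the spread between mice are unknown. In whole tissue, fewer cells of a type and less RNA per cell cannot be told apart.

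Microglia, the resident macrophages of the spinal cord, acquire their identity from a small set of lineage factors. PU.1, the product of *Spi1*, binds regulatory DNA of most myeloid genes, often beside a partner such as IRF8 or a C/EBP protein, and RUNX1 acts in the blood progenitors from which microglia descend. MEF2C is a factor of microglia and also of neurons and muscle, and MITF and TFEC belong to the MiT/TFE family, which controls lysosomal genes. Signals through the receptor of colony stimulating factor 1 keep the cells alive.

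Of the 9 factors, 8 had a base mean of at least 10, and *Tfec* had one below 1. Their summed base mean was 1793, or 0.00809% of the sum over all genes. The median of the 9 base means was 187, against 247 over the 20973 genes with a base mean above 0. Because long genes collect more reads, the order of the genes below is given after division by the length of all annotated exons of a gene in kb, and base means are given beside it. On this scale the median of the 9 factors was 33.0 normalised counts per kb. That of all genes above 0 with an annotated exon length, 20358 genes, was 63.5. The number of factors above the median of all genes was 2, *Irf5* and *Cebpa*, and ran from 0 to 3 with other lengths and other sets of reference genes.

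The promoters of the factors at both ends of this order are shown as the extremes in level per kb of exons. Whether the CpG content of a promoter follows the level of its gene was not tested. With the coding length and with the base mean alone, *Mef2c* and *Mitf* stood above *Irf5*, while *Tfec* stayed the lowest. The 250 bases before the start site of *Irf5*, the highest per kb, held 25 CpG pairs at a GC content of 72.0%, and those of *Tfec*, the lowest, held 2 CpG pairs at 39.2%. Both are from RefSeq on GRCm38.p6, at chr6:29526375-29526624 on the plus strand and chr6:16898442-16898691 on the minus strand, and are written 5′ to 3′ with the CpG pairs in capitals.
Irf5: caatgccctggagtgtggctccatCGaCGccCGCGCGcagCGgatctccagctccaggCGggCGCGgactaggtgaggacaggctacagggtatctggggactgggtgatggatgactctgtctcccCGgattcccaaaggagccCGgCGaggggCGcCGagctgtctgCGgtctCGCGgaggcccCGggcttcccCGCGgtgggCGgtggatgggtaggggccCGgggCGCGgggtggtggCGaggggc
Tfec: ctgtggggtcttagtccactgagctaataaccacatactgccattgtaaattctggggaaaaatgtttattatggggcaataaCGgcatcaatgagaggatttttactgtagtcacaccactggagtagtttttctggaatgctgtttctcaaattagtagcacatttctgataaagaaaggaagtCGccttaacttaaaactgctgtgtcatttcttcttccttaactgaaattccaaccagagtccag

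Among the factors of activation, *Irf5*, a mediator of Toll-like receptor signals, had a base mean of 305 and 105 normalised counts per kb. This level lay above that of 59.4% of the genes. In GRCm38 the gene spans bases 29526625 to 29541871 of chromosome 6, and 411 bases (14.1%) of its exons are shared with *Tnpo3* on the opposite strand, which had a base mean of 1781. The libraries were made with a stranded kit. The strand setting of the counting was not given in the sources used here, and the part of the shared bases in the level of *Irf5* was not tested. *Cebpb*, an inducible factor of inflammatory genes, lies on chromosome 2 from 167688915 to 167690418 and had a base mean of 57.0 (37.9 per kb). Its exons share 312 bases (20.7%) with *Tmem189* on the opposite strand, at a base mean of 2164.

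Of the lineage factors, *Spi1* had a base mean of 83.4 and 31.0 normalised counts per kb, above 39.5% of the genes. It lies on chromosome 2 from 91082390 to 91115756. *Irf8*, a partner of PU.1 that microglia need, lies on chromosome 8 from 120736358 to 120756694 and had a base mean of 187, or 26.6 per kb. The level of *Spi1* per kb was 1.17 times that of *Irf8*, and the order turned when the longest transcript was used as the length, with 41.0 for *Spi1* and 54.0 for *Irf8*. *Cebpa*, a factor of myeloid differentiation on chromosome 7 from 35119293 to 35121928, had the second highest level per kb (77.9) at a base mean of 205. *Runx1*, on chromosome 16 from 92601466 to 92826149, was the lowest of the lineage factors. Its base mean was 51.8, spread over 12025 bases of exons, and its level of 4.31 per kb lay above only 22.0% of the genes. A step of 6.17 times separated *Irf8* from *Runx1*.

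*Mef2c* and *Mitf*, which also act outside myeloid cells, held the highest base means of the 9. *Mef2c*, on chromosome 13 from 83504034 to 83667080, had the largest base mean of the 9, at 519. Its 31 annotated transcripts cover 15.7 kb of exons, so its level per kb was 33.0, the fifth in order, and 82.7 per kb of its longest transcript, the second in order. *Mitf*, on chromosome 6 from 97807052 to 98021349, had a base mean of 383 and 61.8 normalised counts per kb. *Tfec*, its relative on the same chromosome from 16833373 to 16898441, had a base mean of 0.490, less than 1 normalised read per library, and 0.0877 per kb. There were 19230 genes with a larger base mean than *Tfec*, and at so few reads its level cannot be set apart from none.

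**Figure D1:**
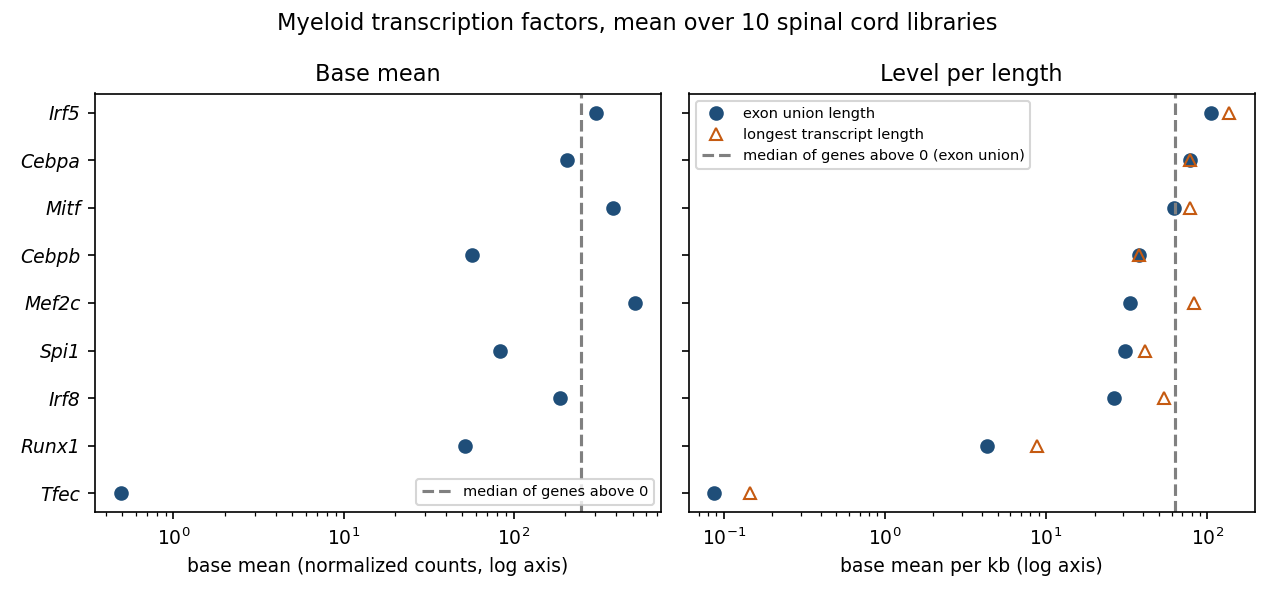
The left panel plots the authors' base mean of each of the 9 factors on a log axis, and the right panel the base mean per kb, with circles for the length of all exons and triangles for the longest transcript. The dashed lines mark the medians of all genes above 0, 247 on the left and, for those with an annotated exon length, 63.5 on the right. The points carry no error because the table holds 1 mean per gene; *Tfec* stands far to the left in both panels.

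The order of the 9 factors therefore had firm and loose parts. *Runx1* and *Tfec* were the last in order with each of the 3 lengths and with the base mean alone. As base mean, however, *Runx1* (51.8) was close to *Cebpb* (57.0), so its place was loose on that scale. Of the 36 pairs of factors, 29 kept their order with the longest transcript and 27 with the coding length. Per kb of exons, the neighbours *Mef2c* and *Spi1* differed by 1.07 times, *Cebpb* and *Mef2c* by 1.15 times and *Cebpa* and *Mitf* by 1.26 times. Whether such neighbours differ beyond the spread between mice is unknown.

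Each factor was then set beside its relatives, which share its DNA-binding domain. *Spi1* held 92.6% of the summed level per kb of its family, with *Spib*, a factor of B cells and plasmacytoid dendritic cells, at 2.23 per kb and *Spic*, known from red pulp macrophages, at 0.233. It was the leader of its family with every length. None of the other 5 families was led by one of the 9 factors.

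In the IRF family the highest level was that of *Irf3*, a widely used mediator of interferon induction, at 175 normalised counts per kb. *Irf5* followed with 20.8% of the family sum and *Irf8* held 5.24%. With the coding length the shares were 11.5% and 8.25%, and as base mean *Irf5* (305) stood below *Irf2* (466) and *Irf9* (351). *Irf7*, which amplifies the interferon response, had 24.8 per kb, close to the 26.6 of *Irf8*, and *Irf4*, a factor of lymphocytes, had 3.11. As base mean, *Irf8* (187) stood well above *Irf7* (93.8).

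*Runx1* held 32.3% of the RUNX sum, the lowest share of the settings used. Its share was 45.7% with the coding length and 39.9% as base mean. *Runx2*, the regulator of bone formation, was at 8.57 per kb against 4.31 for *Runx1*, and *Runx3* was at 0.449. *Cbfb*, the common partner subunit of the RUNX proteins, had 203 per kb.

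Among the C/EBP genes, *Cebpg* led with 177 per kb. *Cebpa* held 24.6% and *Cebpb* 11.98% of the family sum, with *Cebpd* at 22.5 per kb. With the coding length these shares were 7.40% and 2.49%, and as base mean *Cebpb* (57.0) stood below *Cebpd* (84.2). *Cebpe*, a factor of granulocyte maturation, had a base mean of 0.591. In the MEF2 family, *Mef2d* had 500.0 per kb and *Mef2a* 137, while *Mef2c* held 4.93% of the sum (9.81% with the coding length) and *Mef2b* had a base mean of 1.13. In the MiT/TFE family, *Mitf* held 23.7%, below *Tfe3* at 96.0 and *Tfeb* at 103 per kb, both regulators of lysosomal and autophagy genes. *Tfe3* was the highest of this family with the coding length and with the base mean. The share of *Tfec* was 0.0336%.

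**Figure D2:**
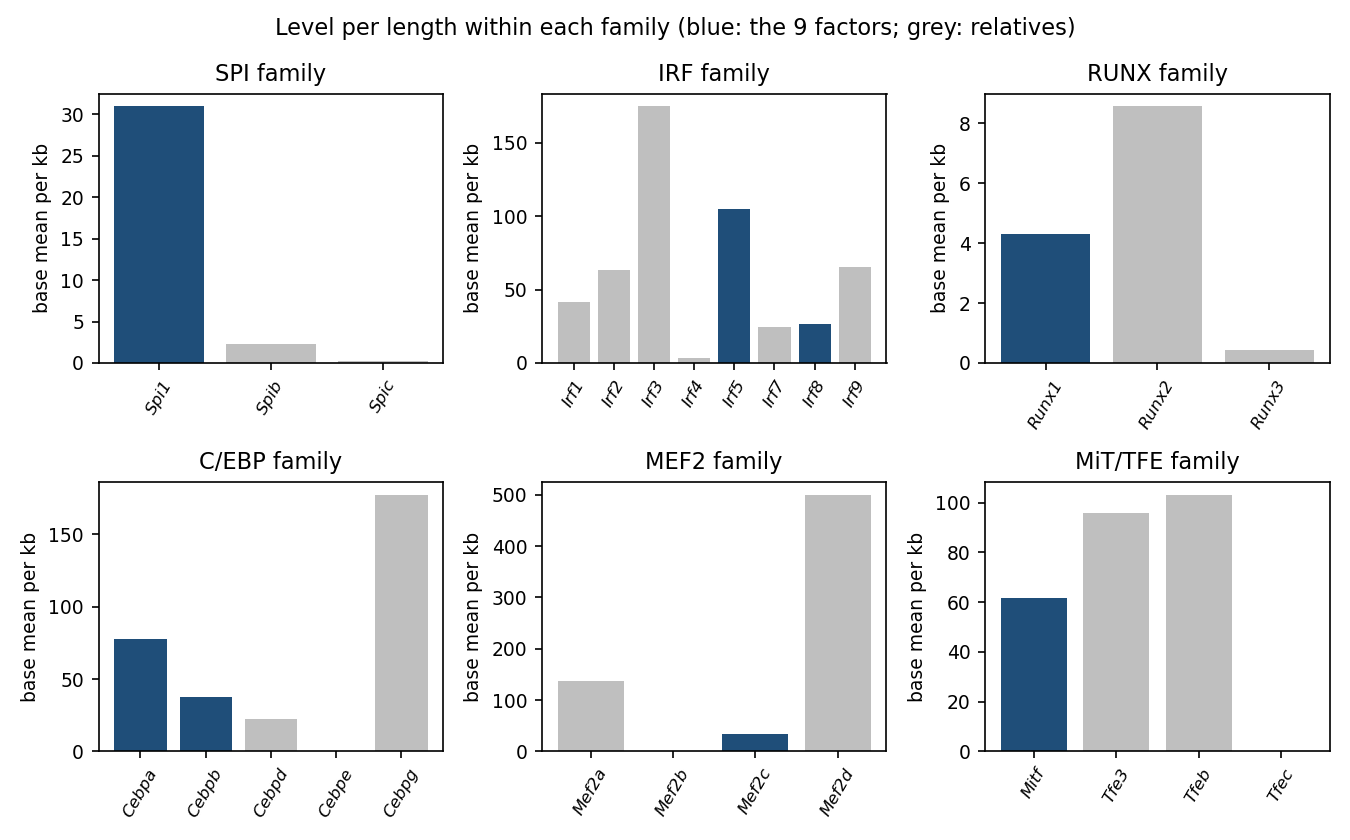
Each panel plots 1 family, with the base mean per kb of exons as bars that start at 0 on a linear axis of its own. Blue bars are the 9 factors and grey bars the relatives shown. *Spi1* is the tallest bar of its panel, whereas *Irf3*, *Runx2*, *Cebpg*, *Mef2d* and *Tfeb* are the tallest in the others, although *Tfe3* passes *Tfeb* with the coding length and the base mean.

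Upstream of the factors, the ligand genes *Csf1* and *Il34*, both ligands of the CSF1 receptor, had 299 and 203 normalised counts per kb. *Csf2* and *Csf3*, which encode the growth factors of granulocytes and macrophages, had base means of 0.591 and 0.778. The receptor gene *Csf1r* had 527 per kb, or 17.0 times the level of *Spi1*. The receptor genes *Csf2ra*, *Csf3r* and *Csf2rb* had 206, 84.3 and 7.53 per kb. Of the partners and inhibitors, *Batf3*, which pairs with IRF8, had 10.2 per kb, and *Id2*, an inhibitor of helix-loop-helix factors, had 726.

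Other transcription factors linked to microglia and macrophages had a higher median than the 9 factors. The list of 8 had a median of 105 per kb against 33.0, and 5 of the 8 lay above the median of all genes. *Bhlhe40* (394), *Sall1* (253) and *Bhlhe41* (225) led the list, of which *Sall1* is a defining factor of microglia among macrophages. *Fli1* and *Ikzf1*, general blood cell factors, had 27.0 and 21.1, beside 31.0 for *Spi1* and 26.6 for *Irf8*. The part of microglia and of other cells of the tissue in the levels of this list was not tested.

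The genes of the list of myeloid effectors that PU.1, IRF8 or the MiT/TFE proteins control stood higher still. Their median was 256 per kb, and 8 of 10 lay above the median of all genes. *Ctss*, a lysosomal protease, had 1856 per kb, *C1qa* of the complement system 1458 and *Tyrobp*, an adaptor of immune receptors, 662. The genes *Gpnmb* and *Acp5*, known targets of MITF, had 28.1 and 6.09 per kb.

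The labelled tissue was checked against marker genes. Oligodendrocyte, astrocyte and neuron markers were abundant, with medians of 18501, 3392 and 973 per kb, the 3 endothelial markers ranged from 101 to 501, and the motor neuron genes *Chat*, *Slc5a7*, *Mnx1* and *Isl1* had 156, 410, 16.6 and 11.5, the last pair below the median of all genes. All 8 microglial markers lay above the median of all genes, with *Aif1* at 72.2, *Tmem119* at 207, *P2ry12* at 229 and *C1qa* at 1458 per kb, and several of the 8 are also in other lists. The 9 factors are not used by microglia alone, so the levels of markers of other cells that could hold them are given beside them. The factors ranged from 0.0877 (*Tfec*) to 105 per kb, and without *Tfec* from 4.31 (*Runx1*). The ranges of the T cell and mast cell markers below overlap that of the factors only through *Tfec*. The 5 markers of border macrophages ranged from 4.65 to 14.7 per kb and the 4 monocyte markers from 1.26 to 7.64. The 5 neutrophil markers ranged from 0.616 (*Ly6g*) to 118 (*S100a9*). The 4 B cell markers ranged from 0.700 to 7.30 per kb, 3 of the 4 T cell markers (the other was not analysed here) from 0.387 to 0.670 and the 4 mast cell markers from 0.124 to 0.258. The melanocyte markers, of which MITF is the master regulator, ranged from 0.316 (*Tyr*) to 16.6 (*Pmel*). The osteoclast markers, whose cells use MITF and TFEC, ranged from 0.590 (*Ocstamp*) to 107 (*Ctsk*). The part of each cell type in the level of a factor was not tested.

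**Figure D3:**
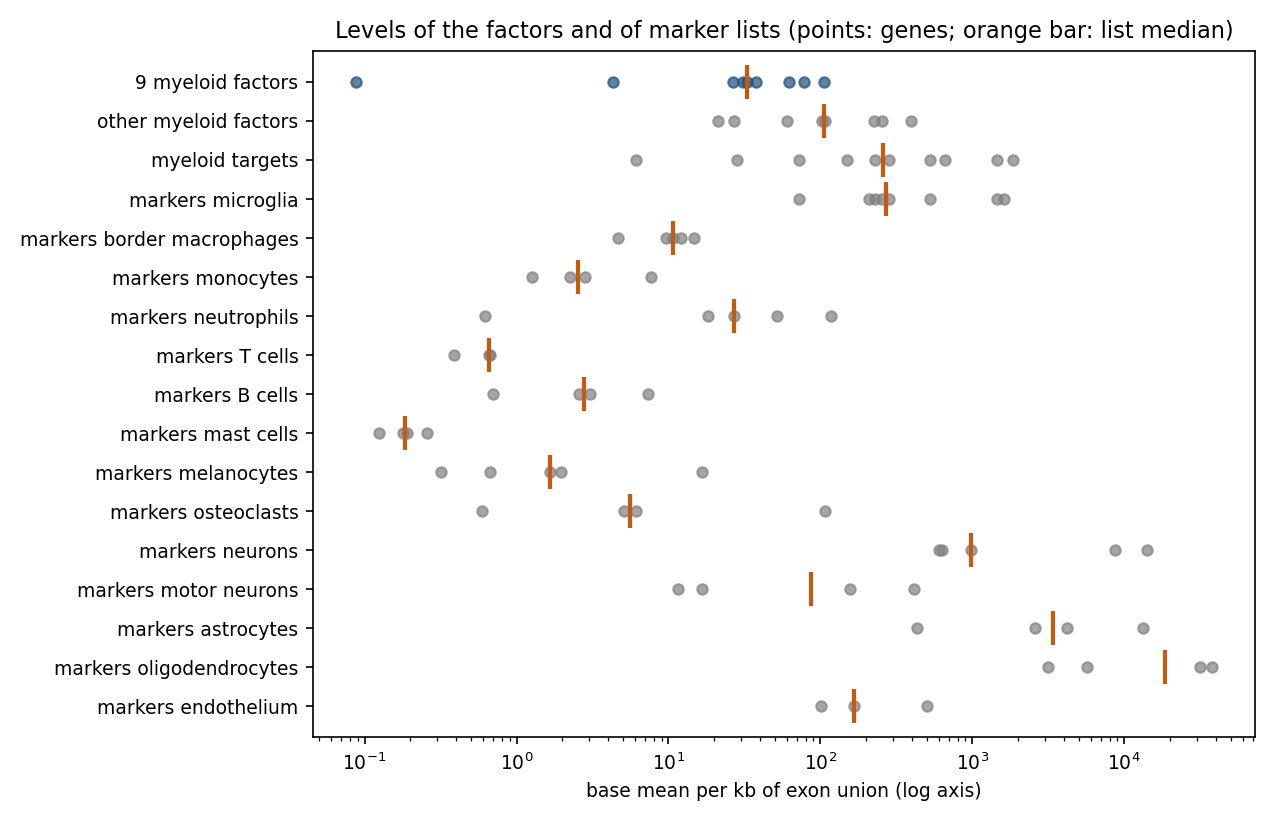
Points are genes and orange bars list medians, on a log axis of base mean per kb of exons. The 9 factors in blue have a median of 33.0, below the microglial markers at 268 and above the border macrophage markers at 10.7 and the monocyte markers at 2.54. The medians of the neuron, astrocyte and oligodendrocyte markers lie at the right. Of the motor neuron markers, *Isl1* (11.5) and *Mnx1* (16.6) lie left of the median of the factors.

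None of the 5 short motifs searched was found in the promoters of more than 3 of the factors. The RefSeq promoter table used gave 14 windows of 300 bases (250 before and 50 after a start site) for 8 of the factors, and the promoter of *Spi1* was not analysed here. The GC content of the single windows of *Cebpb*, *Irf5* and *Cebpa* was 80.7%, 74.7% and 67.3%, against a median of 52.7% over all 32851 windows. The windows of *Mef2c* ran from 35.7% to 48.3% and those of *Mitf* from 40.0% to 62.7%. Those of *Irf8* were at 54.7% and 70.0%, those of *Runx1* at 45.0% and 69.0%, and the single window of *Tfec* at 40.3%. The CpG pairs per window numbered 50 for *Cebpb*, 35 for *Irf5*, 29 for *Cebpa* and 3 for *Tfec*. They ran from 8 to 38 for *Irf8*, 5 to 22 for *Mitf*, 2 to 35 for *Runx1* and 1 to 10 for *Mef2c*. The PU-box letters GAGGAAGT, searched on both strands, were in 0 of the 14 windows and in 3.20% of all windows. The RUNX letters TGTGGT were in 3 windows, 1 each of *Mitf*, *Runx1* and *Tfec*, and in 16.8% of all windows. The E-box CACGTG was in 1 window of *Runx1* and in 7.15% of all windows, and the letters TTGCGCAA of C/EBP and GAAANNGAA of IRF were in 0 of the 14 and in 0.183% and 8.56% of all. These matches describe letters in short windows and say nothing about binding.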

How the data were processed

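RNA of the spinal cord of 5 WT and 5 SOD1 G93A mice was sequenced. According to the methods and the submitters' processing notes, the authors filtered reads with Fastp, aligned them to mm10 with HISAT2 2.1.0, counted uniquely mapped reads per gene with featureCounts 2.0.2 and compared the groups with DESeq2. The gene annotation and strand setting of the counting are not given in the sources used here. The deposited signal used is the authors' base mean, a mean over all libraries of counts divided by size factors. The 5 other deposited columns hold the authors' fold changes, their errors, statistics and p-values for SOD1 G93A against WT, and were not used. Depth per library is unknown, and no test was made.

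Gene models are from GENCODE M21 (GRCm38, which mm10 denotes), and 24310 symbols (96.3%) matched. Base means were divided by the exon union length in kb, which may differ from the lengths the authors counted on. Percentiles are the percent of genes above 0 with a lower value, and those per kb use only genes with an annotated length of that kind. A comparison of the proteins was not run, and some genes of the lists are not reported here. All 9 factors and every gene list were fixed as lists, with earlier results of these data known, and genes named are from these lists; *Tnpo3* and *Tmem189* were named after the exon overlaps were seen. The length and percentile functions were tested on small examples. Python 3.11.15, pandas 2.3.3, numpy 2.4.6 and matplotlib 3.10.9 were used.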

Additional observations from a re-analysis of the deposited data

How the results depend on the processing

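*Spi1* was the only one of the 9 factors to lead its family with each length and with the base mean alone. The median of the factors was 33.0 per kb of exons, 54.0 per kb of the longest transcript, 147 per kb of the GENCODE coding length (chosen after seeing the data, in place of a RefSeq protein length, which was not run) and 187 as base mean, since shorter or no lengths give larger values by construction. The number of factors above the median of all genes was 2 with the exon length. It was 1 with the longest transcript, 1 with the coding length, 1 among genes with an annotated protein, 0 among genes whose base mean was 10 or more and 3 with the base mean alone, an alternative chosen after seeing the data for this count. The percentile of *Mef2c* moved most with these choices, from 22.9 to 62.2, and that of *Spi1* lay between 21.9 and 40.1. For the lists of other factors, effectors and markers, counts above the median were made only with the exon length and all genes above 0. Libraries could not be left out, and no paired analysis was possible because the table holds 1 mean per gene over all libraries and the result comes from no test. With depth and spread unknown, no difference between factors could be set against an error, and *Tfec* is at the limit of detection.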
